A study of Homo sapiens with 8 samples.

Results

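The genes described here encode the cell's main defences against oxidants. They include the transcription factor NRF2 (gene NFE2L2) and its inhibitor KEAP1, the enzymes of glutathione synthesis and use, and the thioredoxin and peroxiredoxin systems. Superoxide dismutases, catalase, enzymes of NADPH supply and the pentose phosphate pathway, and ferritin chains are also among them. The genes were chosen by name, as a list of 49, with earlier results of these data known. Of these, 44 had at least 1 probe set that the array annotation gives to that gene alone, out of 11963 such genes on the array. Those 44 genes had 68 probe sets, and each gene is described by the set with the highest mean over all arrays. MGST1, SRXN1, PRDX5, SOD2 and FTH1 are not analysed here, because they had no probe set of their own.

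The cells were SH-SY5Y, a long-established neuroblastoma line of human origin obtained from ATCC, with features of sympathetic neuroblasts, and their RNA was hybridised to 8 Affymetrix arrays. Clones B and G had been stably transfected with RNAi against DJ-1 (gene PARK7), and clones H and M with a scrambled RNAi sequence as control. Each of the 4 clones was hybridised to 2 arrays, numbered 1 and 2, and an array is named below by its clone and number (B1, B2). Each condition is thus 4 arrays of 2 clones, and a difference between conditions cannot be told apart from a difference between 1 pair of clones and the other. The labels do not say whether the arrays of a clone were separate cultures, so the spread between arrays of a clone could be purely technical. A p-value between 2 clones rests on that spread alone. A p-value between conditions also rests on the differences between the 2 clones of each condition. Values are log2 probe-set signals, on which a difference of 1 is a doubling.

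DJ-1 is a small redox-sensitive protein whose loss causes a recessive form of Parkinson's disease, and its oxidised cysteine has made it a candidate sensor of oxidants. NRF2 is held in the cytoplasm and marked for degradation by KEAP1. When oxidants or electrophiles modify KEAP1, NRF2 enters the nucleus, pairs with small MAF proteins and binds antioxidant response elements near genes such as NQO1, GCLM and TXNRD1. DJ-1 has been described as a stabiliser of NRF2. Glutathione and thioredoxin are the main thiol reductants, both recharged with NADPH, and TXNIP binds and inhibits thioredoxin. TXNIP transcription follows glucose supply through the factors MondoA and ChREBP, which bind carbohydrate response elements in its promoter.

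The knockdown was present in every array labelled as such. PARK7 signal was 10.45, 10.12, 10.10 and 10.05 on arrays B1, B2, G1 and G2, and 13.11, 13.14, 13.11 and 12.95 on H1, H2, M1 and M2. The difference was -2.90 (standard error, SE, 0.09), a 7.46-fold lower signal in knockdown arrays (adjusted p = 1.67e-06, limma). Of 13 listed sympathetic neuroblast markers 12 were measured, 11 of them at or above the array-wide median level and TH below it, at 6.02. Every one of the 5 leukocyte and 6 epithelial markers measured lay below that level. Of 4 Schwann and glial markers measured, SOX10 alone lay above it, at 8.13. The 8 markers of mesenchymal-type neuroblastoma cells had a mean signal of 8.83 and 8.70 on M1 and M2, 8.08 and 7.43 on H1 and H2, and 7.17 to 7.83 on knockdown arrays. Those 8 were all lower in H than in M, with a median difference of -1.13, but PRRX1 and CD44 each differed by only -0.12. Between H and M, 1 of the 8, YAP1, had an adjusted p under 0.05 (limma), as did 1.17% of all genes. With the replicate number as a block, SNAI2, VIM and FN1 were called as well (limma, adjusted p = 0.00416, 0.00274 and 0.0105). No other of the 8 was called with it, and 7.19% of all genes were. At or above the array-wide median level were 4 of the 8. The ACTB probe sets at the 3′ and 5′ transcript ends differed by 0.24 to 0.46 on knockdown and 0.10 to 0.30 on control arrays. For GAPDH the same difference was 0.05 to 0.09 on knockdown and 0.02 to 0.13 on control arrays. The part of these gauges of RNA integrity in the differences below was not tested. In such bulk RNA, fewer cells of a type and less RNA per cell cannot be told apart.

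Antioxidant response elements were looked for in the stretch of 250 bases before each RefSeq gene start (build GRCh38.p14), as the core TGACNNNGC on either strand. Sequence farther from the start was not searched, so a gene without a core here can hold one elsewhere. The table held windows for 39 of the 49 genes, 57 windows in all. The core was found in 9 of these windows (15.8%), against 10.9% of all 35116 windows, and belonged to 8 genes: KEAP1, GCLM, GPX2, GSTO1, GSTP1, ME1, PGD and TXNRD1. In ME1 and GSTP1 the core overlaps TGACTCA, the site of the factor AP-1, which was present in 4.20% of all windows. The sites of KEAP1, PGD, GSTP1, GSTO1 and TXNRD1 are printed 5′ to 3′ on the gene's strand, with the core in capitals. Those of GCLM, GPX2 and ME1 are not printed. The inhibitor KEAP1 itself has a pair of cores close to its start.
KEAP1, farther from the start (chr19:10502807-10502835, minus strand): acttttattgTGACACGGCgggcgcccgg
KEAP1, nearer to the start (chr19:10502784-10502812, minus strand): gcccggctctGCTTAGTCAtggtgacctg
PGD (chr1:10398853-10398881, plus strand): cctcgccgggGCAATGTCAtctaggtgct
GSTP1 (chr11:67583736-67583764, plus strand): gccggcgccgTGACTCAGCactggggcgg
GSTO1, farther from the start (chr10:104254656-104254684, plus strand): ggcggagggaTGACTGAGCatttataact
GSTO1, nearer to the start (chr10:104254721-104254749, plus strand): cgagatgcttTGACACAGCcccttaagat
TXNRD1 (chr12:104215670-104215698, plus strand): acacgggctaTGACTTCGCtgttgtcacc
TXNRD1, another start (chr12:104286920-104286948, plus strand): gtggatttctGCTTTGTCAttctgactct

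TXNIP had the largest movement of any member, so its promoter is shown as well. The 250 bases before its start (chr1:145996580-145996829, minus strand) hold 1 carbohydrate response element pair, searched as CACGNG, then NNNNN, then CNCGNG, and shown in capitals. This pattern was present in 0.424% of all windows, searched on both strands, and among the members also in that of GPX1, a glutathione peroxidase. A match of letters is a description of the window and not a shown binding site.
TXNIP: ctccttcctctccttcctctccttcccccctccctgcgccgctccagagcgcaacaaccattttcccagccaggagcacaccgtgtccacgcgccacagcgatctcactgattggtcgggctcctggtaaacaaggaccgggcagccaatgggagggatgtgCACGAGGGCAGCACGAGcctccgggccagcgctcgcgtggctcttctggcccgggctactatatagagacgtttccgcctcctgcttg

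Between the knockdown and control arrays, no antioxidant gene passed the test. At an adjusted p under 0.05 (limma, Benjamini-Hochberg over 22215 probe sets), 0 of 44 members were called, where 3.14% of all genes were called, 1.54% as higher and 1.6% as lower in knockdown. Of all probe sets tested, 2.96% were called. At an unadjusted p under 0.05 there were 9 members (20.5%), against 21% of all genes: PRDX3, KEAP1, PRDX2 and PGD on the higher side, and GLRX, NQO1, NQO2, MSRA and GSTM4 on the lower. The median difference of the members was -0.04, against 0.00 over all genes, with 17 members above 0 and 27 below it. A difference smaller than 0.25 in size was found for 34 of the 44 members (77.3%) and for 78.1% of all genes. The arrays carrying the same number deviated together in every pair of clones, and when that number entered the model as a block, 3 members were called (6.82%), against 3.7% of all genes. PRDX3 and TXNIP were higher in knockdown, where 1.8% of all genes were called, and NQO2 was lower, where 1.91% were. The 0 of the test without the block became 9 members without array H2 (17.7% of all genes), 2 without H1 (7.21%) and 1 without M1 (2.76%). It became 16 without clone H (40.5%) and 2 without clone M (10%), and stayed 0 without B1 (1.04%), B2 (0.267%), G1 (0.961%), G2 (0.961%), M2 (2.47%), clone B (0.0585%) or clone G (0.0752%).

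**Figure D1:**
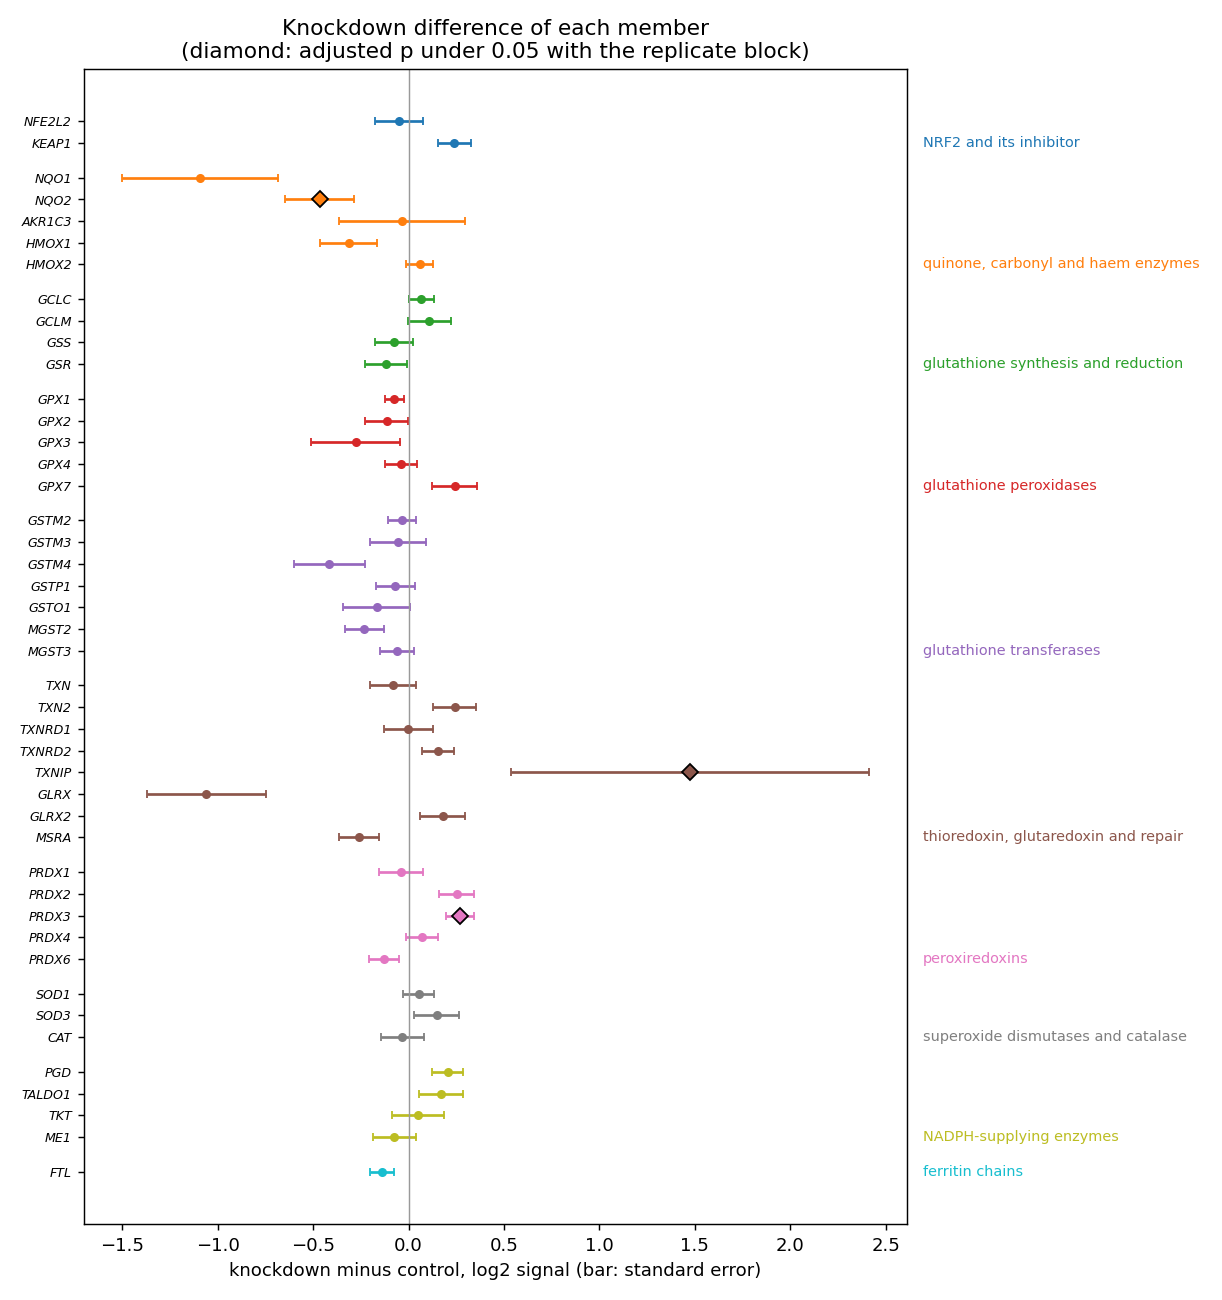
Knockdown minus control difference of the 44 measured members on the log2 scale (x axis), by role (colour), with the standard error of the fit as bars and 4 arrays of 2 clones in each condition. Diamonds mark NQO2, TXNIP and PRDX3, which passed the test with the replicate block, and without that block no member passed.

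Neither NRF2 nor KEAP1 passed the knockdown test. NFE2L2, which encodes NRF2, differed by -0.05 (SE 0.13, adjusted p = 0.858). Its clone means were 10.79 in B and 10.68 in G, and 10.60 in H and 10.97 in M. KEAP1 signal was 9.94, 9.97, 9.82 and 9.85 on B1, B2, G1 and G2, and 9.65, 9.82, 9.67 and 9.48 on H1, H2, M1 and M2. Array H2 reached the level of G1, and the other control arrays were below all knockdown arrays. The difference was 0.24 (SE 0.08) with an adjusted p of 0.161, and it did not pass the test. It was 0.30 without array H2 (adjusted p = 0.0232) and 0.16 without clone M (adjusted p = 0.157). Without clone H, KEAP1 and NFE2L2 were both among the 16 members called (36.4%), where 40.5% of all genes were called. The pair of cores printed above for KEAP1 stands beside these values only as a description.

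Among the enzymes that handle quinones, carbonyls and haem, NQO1 had the lowest knockdown difference of all 44 members, and 1 control clone stood apart. NQO1 is a quinone reductase and a classic NRF2 target. Its signal was 8.23, 7.90, 8.04 and 7.62 on B1, B2, G1 and G2, and 8.26, 8.18, 10.17 and 9.55 on H1, H2, M1 and M2. Clone M stood high, and the arrays of clone H lay within or just above the knockdown range. The difference from control was -1.09 (SE 0.41), a 2.13-fold lower mean, with an adjusted p of 0.184. Without clone M it was -0.27 (adjusted p = 0.180), without array M1 it was -0.65 (adjusted p = 0.292), and without clone H it was -1.92 (adjusted p = 7.33e-05). Both other NQO1 probe sets gave the same picture, with M at 9.16 and 8.62 or at 9.54 and 9.06, and all other arrays between 7.22 and 7.54 or between 7.41 and 7.95.

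NQO2, a relative of NQO1 that uses a different reduced cofactor, depended on the replicate number. NQO2 signal was 9.07, 8.57, 9.02 and 8.55 on B1, B2, G1 and G2, and 9.34, 8.91, 9.72 and 9.09 on H1, H2, M1 and M2. Among arrays with number 1 both control arrays exceeded both knockdown arrays, and the same held for number 2, while the groups overlapped over all arrays. The difference of -0.47 (SE 0.18) had an adjusted p of 0.199 without the replicate block and 0.0447 with it. HMOX1, the inducible haem oxygenase that releases iron and biliverdin, had signals of 6.15, 6.60, 6.47 and 6.84 on B1, B2, G1 and G2, and 6.70, 6.61, 6.98 and 7.01 on H1, H2, M1 and M2. HMOX1 differed by -0.31 (SE 0.15, adjusted p = 0.281), and only the M arrays lay above all knockdown arrays. AKR1C3, an aldo-keto reductase, had signals of 6.11, 4.74, 4.97 and 4.67 in the knockdown arrays B1, B2, G1 and G2, and 5.67, 4.53, 5.53 and 4.89 in H1, H2, M1 and M2. Array B1 was the highest, and the difference was -0.03 (SE 0.33, adjusted p = 0.966). The constitutive haem oxygenase HMOX2 differed by 0.06 (SE 0.07). HMOX1 and AKR1C3 were among the 4 members with a mean below the array-wide median of 8.06, and without detection calls such low signals cannot be separated from background.

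The signals of the 4 genes of glutathione synthesis and reduction differed little between the conditions. The differences ran from -0.12 for GSR, which reduces oxidised glutathione, to 0.11 for GCLM, the regulatory subunit of the rate-limiting ligase. The catalytic subunit GCLC differed by 0.07 (SE 0.06) and the synthetase GSS by -0.08 (SE 0.10). GCLC arrays lay between 9.96 and 10.19 in all 8 cases. None of the 4 reached an unadjusted p under 0.05. Of the genes whose windows hold an antioxidant response element core, GCLM differed by 0.11, GPX2 by -0.11, GSTO1 by -0.17, GSTP1 by -0.07, ME1 by -0.08 and TXNRD1 by 0.00, and none of them, nor KEAP1 or PGD, passed the test.

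Among 5 glutathione peroxidases, which use glutathione to remove peroxides, none passed the test and none had an unadjusted p under 0.05. GPX4, which removes lipid hydroperoxides and guards against ferroptosis, differed by -0.04 (SE 0.08). GPX1, the abundant cytosolic form, differed by -0.07 (SE 0.05). GPX7, which resides in the endoplasmic reticulum, had signals of 9.30, 9.33, 9.17 and 9.02 on B1, B2, G1 and G2, and 8.63, 9.08, 9.10 and 9.03 on H1, H2, M1 and M2. Array H1 was low and the remaining control arrays overlapped the knockdown arrays, with a difference of 0.24 (SE 0.12, adjusted p = 0.292).

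All 7 glutathione transferases measured had a difference below 0, from -0.41 to -0.03, with a median of -0.07, and none passed the test. These enzymes join glutathione to electrophiles, and the MGST forms sit in membranes. GSTM4, of the mu class, had signals of 8.24, 8.01, 8.16 and 7.77 on B1, B2, G1 and G2, and 8.39, 7.94, 8.79 and 8.72 on H1, H2, M1 and M2. As for NQO1, the M arrays were highest, and array H2 lay within the knockdown range. GSTM4 differed by -0.41 (SE 0.18) with an adjusted p of 0.25. Mu-class genes are near-identical in sequence, so the signals of GSTM2 and GSTM4 may include each other's transcripts. The abundant pi-class enzyme GSTP1 differed by -0.07 (SE 0.10).

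The thioredoxin and glutaredoxin group held the highest difference of all members, at TXNIP, and one of the lowest, at GLRX. Thioredoxin itself was level: TXN differed by -0.08 (SE 0.12), and TXNRD1, the cytosolic reductase that recharges it, by 0.00 (SE 0.13). TXNIP, the inhibitor of thioredoxin, had signals of 12.39, 9.00, 12.18 and 8.87 on B1, B2, G1 and G2, and 10.01, 7.78, 10.93 and 7.82 on H1, H2, M1 and M2. Within each number every knockdown array was above every control array, but arrays numbered 1 were far above arrays numbered 2, so the conditions overlapped. The mean difference was 1.48 (SE 0.94), or 2.78-fold, with an adjusted p of 0.414 without the replicate block and 0.0161 with it. Without array B1 the difference was 0.91 (adjusted p = 0.685), and without G1 it was 0.98 (adjusted p = 0.688). Over all clones it was 1.81 within number 1 (adjusted p = 0.0847) and 1.14 within number 2 (adjusted p = 0.162). Of the other TXNIP probe sets, 1 passed with the block (difference 1.64, adjusted p = 0.0261) and 1 did not (1.25, adjusted p = 0.0768).

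GLRX, the cytosolic glutaredoxin that removes glutathione from protein thiols, was low on arrays B2 and G2 and high on both M arrays. GLRX signal was 8.50, 7.46, 8.30 and 7.44 on B1, B2, G1 and G2, and 8.72, 8.35, 9.57 and 9.30 on H1, H2, M1 and M2. Array H2 fell between the knockdown arrays numbered 1, and the other control arrays were above all knockdown arrays. The difference was -1.06 (SE 0.31), a 2.08-fold lower mean, with an adjusted p of 0.107. A less bright GLRX probe set differed by -1.01, with an adjusted p of 0.0634 without and 0.0192 with the replicate block. GLRX2, the mitochondrial glutaredoxin, differed in the other direction by 0.18 (SE 0.12, adjusted p = 0.434).

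TXN2, the mitochondrial thioredoxin, had signals of 10.52, 10.57, 10.32 and 10.47 on B1, B2, G1 and G2, and 10.38, 10.44, 10.05 and 10.04 on H1, H2, M1 and M2. The H arrays lay among the knockdown arrays and the M arrays below all others, and the difference of 0.24 (SE 0.11) did not pass the test (adjusted p = 0.263). A second TXN2 probe set differed by 0.03, and there the M arrays, at 10.08 and 10.21, lay within the 9.93 to 10.35 of the other clones. MSRA, which repairs oxidised methionine, had signals of 8.57, 8.46, 8.42 and 8.38 on B1, B2, G1 and G2, and 8.51, 8.61, 8.79 and 8.96 on H1, H2, M1 and M2. The control arrays were higher except that H1 fell below B1, and the difference was -0.26 (SE 0.11, adjusted p = 0.216).

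The peroxiredoxins, thiol peroxidases that remove hydrogen peroxide, included the only member whose knockdown and control arrays did not overlap, PRDX3. Non-overlap was found for 1 of 44 members (2.27%) and for 12.2% of all genes. PRDX3 is the mitochondrial peroxiredoxin, recharged by TXN2. PRDX3 signal was 12.28, 12.08, 12.23 and 12.02 on B1, B2, G1 and G2, and 11.99, 11.84, 11.92 and 11.78 on H1, H2, M1 and M2. The lowest knockdown array stood just above the highest control array, and in each clone array 2 was below array 1. The difference was 0.27 (SE 0.07), or 1.21-fold, with an adjusted p of 0.0871 without the replicate block and 0.0350 with it. A much dimmer PRDX3 probe set differed by -0.07 (adjusted p = 0.747).

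PRDX2, an abundant cytosolic peroxiredoxin, had signals of 13.15, 12.83, 13.07 and 12.79 on B1, B2, G1 and G2, and 12.87, 12.65, 12.73 and 12.58 on H1, H2, M1 and M2. H1 lay above B2 and G2, and the difference of 0.25 (SE 0.09) had an adjusted p of 0.169, or 0.0545 with the block. PRDX1, another cytosolic form, differed by -0.04, PRDX4, of the endoplasmic reticulum, by 0.07 and PRDX6, which uses glutathione, by -0.13, none past the test. The superoxide dismutases and catalase were level. SOD1, the cytosolic dismutase, differed by 0.05 (SE 0.08), and CAT, the peroxisomal catalase, by -0.03 (SE 0.11). SOD3, the secreted dismutase, had signals of 8.11, 8.15, 8.24 and 8.47 on B1, B2, G1 and G2, and 8.11, 8.35, 7.97 and 7.94 on H1, H2, M1 and M2. The M arrays of SOD3 were lowest and the H arrays lay inside the knockdown range or at its lower edge, and the difference was 0.15 (SE 0.12, adjusted p = 0.512).

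Among enzymes of NADPH supply and the pentose phosphate pathway, PGD is the phosphogluconate dehydrogenase of that pathway. PGD signal was 11.50, 11.68, 11.61 and 11.64 on B1, B2, G1 and G2, and 11.31, 11.63, 11.29 and 11.38 on H1, H2, M1 and M2. Array H2 reached the knockdown level and the other control arrays were lower, with a difference of 0.21 (SE 0.08, adjusted p = 0.208). The transaldolase TALDO1 differed by 0.17 (SE 0.11), the transketolase TKT by 0.05 (SE 0.14) and the malic enzyme ME1 by -0.08 (SE 0.11). FTL, the ferritin light chain that stores iron, differed by -0.14 (SE 0.06, adjusted p = 0.257). FTL was called without clone M and without array M1. Its probe set, like those of GSTM2 and SOD3, belongs to the manufacturer's class whose probes can match other sequences.

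**Figure D2:**
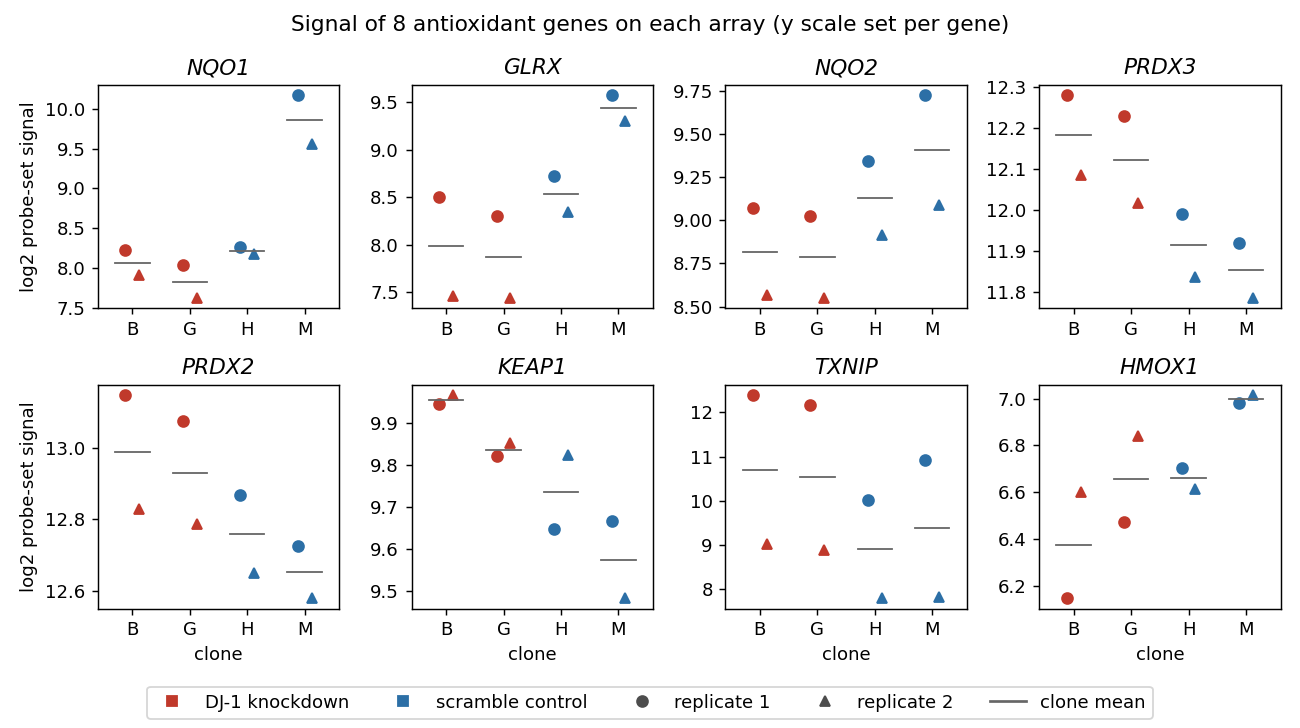
Log2 probe-set signal of 8 members on each of the 8 arrays (y axis, scaled per gene), by clone (x axis), with knockdown in red, control in blue, replicate 1 as circles, replicate 2 as triangles and clone means as lines. NQO1 is high in clone M alone, PRDX3 separates the conditions without overlap, and TXNIP falls from circle to triangle in every clone.

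The 2 control clones were compared next, since each condition rests on 1 pair of clones. Between H and M, NQO1 was the 1 member called (2.27%), against 1.17% of all genes. NQO1 differed by -1.65 (H minus M, SE 0.24), or 3.13-fold (adjusted p = 0.0277). With the replicate number as a block, 6 members (13.6%) were called, against 7.19% of all genes. NQO1, GLRX (difference -0.91), GSTM4 (-0.59) and PRDX1 (-0.30) were lower in H, and TXN2 (0.37) and TKT (0.28) were higher. NFE2L2 differed by -0.37 (adjusted p = 0.366, or 0.0864 with the block). The mean of the mesenchymal markers given above was also highest in M, as NQO1, GLRX and GSTM4 were, and its part in these differences was not tested.

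The knockdown clones were much closer to each other. No member was called between B and G, with or without the block, and 0.00836% of all genes were called without it and 0.0167% with it. The median absolute difference of the members was 0.08 between B and G and 0.13 between H and M, against 0.07 and 0.14 over all genes. The member farthest apart was AKR1C3, 0.61 higher in B (SE 0.50), which rested on array B1. As B minus G, HMOX1 differed by -0.28, NQO1 by 0.24, SOD3 by -0.22 and GPX7 by 0.22, none past the test.

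**Figure D3:**
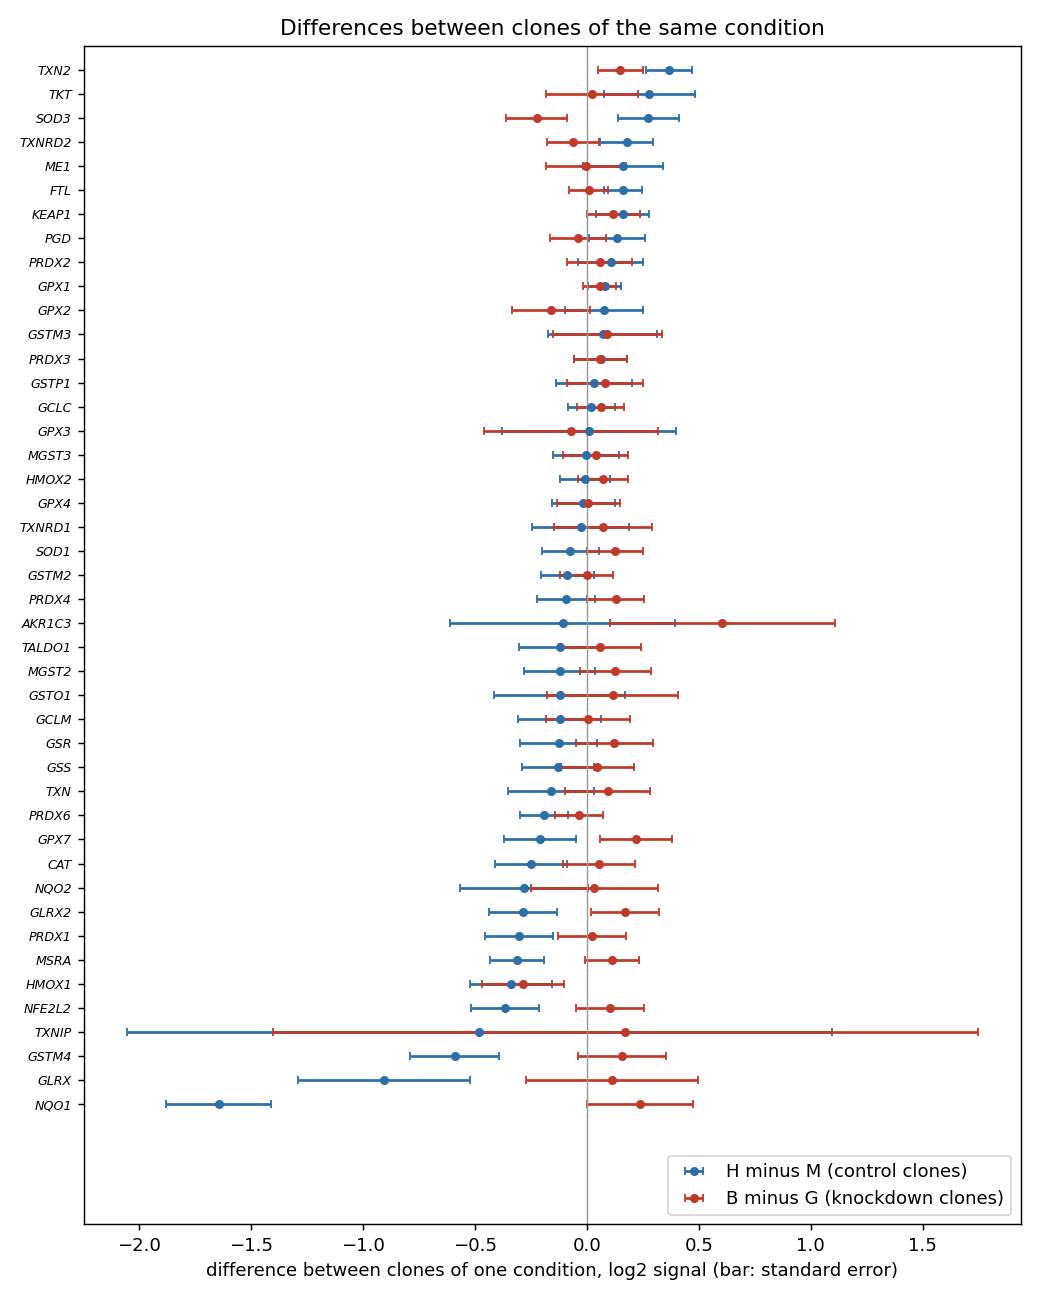
Difference between the control clones, H minus M (blue), and between the knockdown clones, B minus G (red), for each member on the log2 scale (x axis), with standard errors as bars and 2 arrays a clone. NQO1, GLRX and GSTM4 lie farthest to the left in blue, at -1.65, -0.91 and -0.59, while their red points lie to the right of 0, NQO1 at 0.24, and the widest bars are those of TXNIP.

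Each knockdown clone was set against each control clone, and these comparisons share their clones. Against M, NQO1 differed by -1.80 in B (adjusted p = 0.00952) and by -2.04 in G (adjusted p = 0.0059). TXN2 differed by 0.50 in B (adjusted p = 0.0405) and by 0.35 in G (adjusted p = 0.117). On the second TXN2 probe set the M arrays lay within the range of the other clones. The members called against M were 2 in B (4.55%, where 4.7% of all genes were called) and 1 in G (2.27%, where 3.69% were called). Against H, NQO1 differed by -0.15 in B (adjusted p = 0.916) and by -0.39 in G, and no member was called in either clone. Of all genes, 0.125% were called between B and H and 0.0585% between G and H. With the replicate block, TXNIP was the 1 member called against H in each knockdown clone, 1.80 higher in B (adjusted p = 0.0121) and 1.63 higher in G (adjusted p = 0.0254), where 2.45% and 1.21% of all genes were called. Against M with that block, 12 members (27.3%) were called in B and 12 in G, where 21.2% and 17.2% of all genes were called. TXNIP, PRDX2, PRDX3 and TXN2 were on the higher side against M in both clones, and NQO1, NQO2, GLRX, GSTM4 and MSRA on the lower. In B alone KEAP1 was also called as higher, and HMOX1 and PRDX6 as lower. In G alone SOD3 was also called as higher, and GSTO1 and MGST2 as lower.

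Arrays numbered 2 had lower signals than arrays numbered 1 for many antioxidant genes, and those past the test were all lower. In a fit with clone and number as terms, 17 of 44 members (38.6%) were lower on arrays numbered 2 and 0 were higher, at an adjusted p under 0.05. Of all genes, 10.1% were lower and 4.56% higher, together 14.7%. The median difference, number 2 minus number 1, was -0.21 over the members and 0.02 over all genes. Of the 40 members at or above the array-wide median level, 16 were lower on number 2 (40%), against 15.3% of all genes at such a level. The signal was lower on number 2 than on number 1 in every clone for 29 members (65.9%), against 20.6% of all genes, and it was higher in every clone for 1 member, PGD (2.27%, against 19.8% of all genes). What the number stands for is not given in the labels. The ACTB difference between 3′ and 5′ ends ran from 0.10 to 0.46 on number 1 and from 0.11 to 0.25 on number 2. For GAPDH it ran from 0.02 to 0.13 on number 1 and from 0.03 to 0.06 on number 2. The part of these gauges was not tested.

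TXNIP had the most negative difference of all 11963 genes. For TXNIP, number 2 minus number 1 was -3.39 in clone B, -3.31 in G, -2.23 in H and -3.11 in M, and the fitted difference was -3.01 (SE 0.17), or 8.05-fold lower (adjusted p = 0.000531). Arrays numbered 1 lay between 10.01 and 12.39 and arrays numbered 2 between 7.78 and 9.00, with no overlap, and the other TXNIP probe sets separated the numbers as well. The GPX1 window shares the carbohydrate response element pattern printed for TXNIP, and GPX1 differed by 0.01 (adjusted p = 0.835). AKR1C3 followed TXNIP at -0.86 (SE 0.16, adjusted p = 0.014), at a signal below the array-wide median. GLRX differed by -0.64 (SE 0.13, adjusted p = 0.019), with values of -1.04 in B and -0.87 in G, and of -0.37 in H and -0.27 in M. No member, and no gene of all, passed the interaction test of condition and number at an adjusted p under 0.05 (limma). At an unadjusted p there were 5 members, GPX3, GPX4, GSTM3, MGST3 and TALDO1 (11.4%, against 8.72% of all genes).

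The lower signals on number 2 ran through most of the roles. Of the quinone and carbonyl enzymes, NQO1 (-0.36), NQO2 (-0.51) and AKR1C3 fell. Of the transferases, GSTO1 (-0.54), GSTM3 (-0.40) and GSTP1 (-0.29) fell, and GSTO1 arrays lay between 11.31 and 11.50 on number 1 and between 10.69 and 11.07 on number 2. GSTP1 also separated, from 11.95 to 12.04 against 11.59 to 11.75. TXN (-0.32) and its reductase TXNRD1 (-0.36) fell with GLRX and TXNIP, as did the peroxiredoxins PRDX1 (-0.25), PRDX2 (-0.24) and PRDX3 (-0.17). SOD1 (-0.21), the glutathione synthetase GSS (-0.23), the transketolase TKT (-0.37) and the transaldolase TALDO1 (-0.30) fell as well. Of the 8 genes with an antioxidant response element core, GSTO1, GSTP1 and TXNRD1 passed this test. The other differences were 0.01 for KEAP1, 0.16 for PGD, 0.13 for GPX2, -0.21 for GCLM and -0.22 for ME1, none past it.

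**Figure D4:**
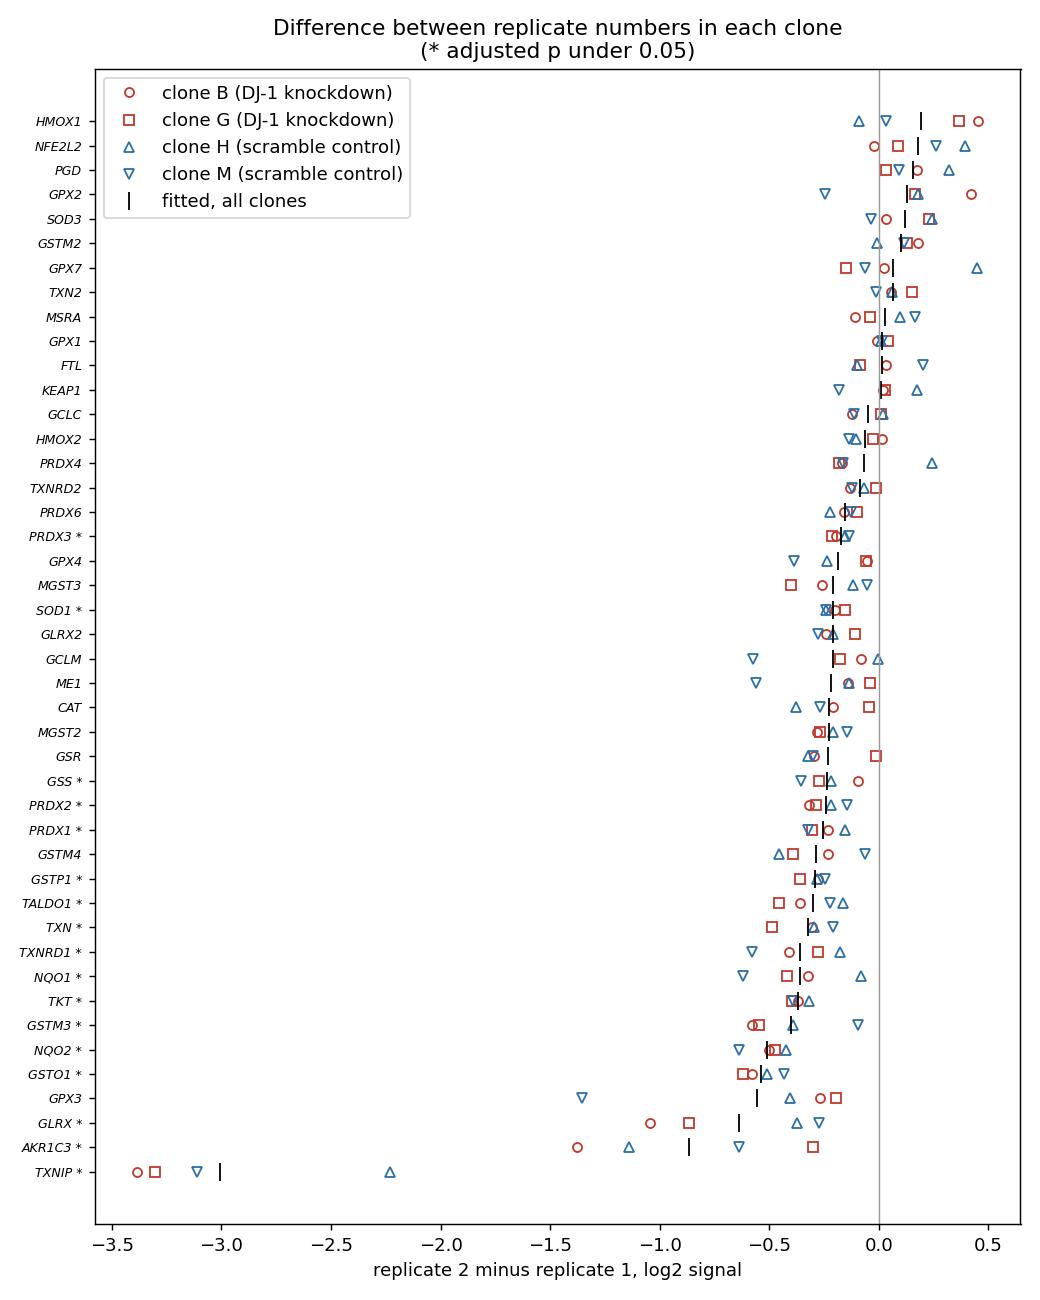
Difference between arrays numbered 2 and 1 of each clone (symbols; knockdown red, control blue) and fitted over the 4 clones (black tick) for each member, on the log2 scale (x axis). Stars mark the 17 members past the test, all to the left of 0, and TXNIP lies between -3.39 and -2.23 in the 4 clones.

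No glutathione peroxidase passed in this contrast, nor did NFE2L2, KEAP1 or FTL. HMOX1 had the highest member difference, 0.19 (adjusted p = 0.256), and NFE2L2 followed with 0.18 (adjusted p = 0.152). PGD differed by 0.16 (adjusted p = 0.123). The count of 17 was 4 without clone B, 5 without clone G, 12 without clone H and 18 without clone M.

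A wider list of 92 genes of the same pathways, 66 of them measured, was read in the same fits. Between knockdown and control 0 rose and 3 fell, where 1.54% of all genes were higher and 1.6% lower, with a median difference of 0.00 over the list. MAFF, a small MAF partner of NRF2, differed by -0.56 (SE 0.07, 1.48-fold, adjusted p = 0.00735). MAFF signals were 8.07, 7.94, 8.00 and 7.91 on B1, B2, G1 and G2, and 8.55, 8.49, 8.50 and 8.64 on H1, H2, M1 and M2, with no overlap. BLVRB, a biliverdin reductase, differed by -0.67 (SE 0.13, adjusted p = 0.0314), and TIGAR, which steers glucose to the pentose phosphate pathway, differed by -0.62 (SE 0.11, adjusted p = 0.0212). Neither overlapped between conditions, as held for 12.2% of all genes. All 3 also passed with the replicate block, which called 4 genes of the list in all, against 3.7% of all genes. The fourth was CHAC1 (adjusted p = 0.0471). On clone means 0 genes of the list were called, and 1 of all probe sets.

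The largest differences of that list did not pass. SLC7A11, the cystine importer that feeds glutathione synthesis, had signals of 8.76, 10.15, 7.88 and 10.20 on B1, B2, G1 and G2, and 5.83, 9.41, 6.74 and 7.49 on H1, H2, M1 and M2. The mean difference was 1.88 (SE 0.71, adjusted p = 0.188), and array H2 lay among the knockdown arrays. Within each number both knockdown arrays were above both control arrays, and SLC7A11 was not called with the replicate block either. BACH2, a repressor at antioxidant response elements, differed by -0.96 (SE 0.24, adjusted p = 0.0721), and CHAC1, which degrades glutathione, by 0.90 (SE 0.44, adjusted p = 0.289). On arrays numbered 2 against 1, 9 of the 66 genes fell and 3 rose, where 10.1% of all genes were lower and 4.56% higher. The 3 that rose were SLC7A11, by 2.01 (adjusted p = 0.0143), CHAC1, by 1.33 (adjusted p = 0.00300), and NFE2L1, a relative of NRF2, by 0.31 (adjusted p = 0.0134). The mitochondrial NADP-dependent isocitrate dehydrogenase IDH2 (-0.69) and the methionine sulfoxide reductase MSRB2 (-0.65) fell farthest, and the NRF2 target PIR (-0.57) followed.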

How the data were processed

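Total RNA of 8 SH-SY5Y samples was labelled with biotin by a one-cycle protocol, per the labels' protocols. Per the submitters' processing notes the software was GCOS and RMA, whose versions the sources used here do not give. The authors deposited log2 signals per probe set, as the range of the values shows. RMA forces all arrays to one distribution, which removes a shift shared by most genes and can compress large differences, and no detection calls were used. Precision is limited by the number of arrays.

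Of 22277 probe sets, 62 manufacturer controls were left out. The platform annotation gave 19064 of the other 22215 a single gene, 1043 several and 2108 none, and gene IDs tied 19052 of the single-gene sets to RefSeq symbols in use now. A set with several genes was given no name.

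Models were fitted in R 4.3.3 by limma 3.58.1 (two-sided; lmFit, eBayes with trend), with clone as a random block by duplicateCorrelation (statmod 1.5.0) and Benjamini-Hochberg adjustment over 22215 probe sets. The consensus correlation within clones was -0.068, and 0.235 with the replicate number in the model. As the first is below 0, the clone block did not widen the standard errors of the main knockdown fit. Without that block 489 probe sets were called, against 657 with it. Pairs of clones were compared in a fit with 1 mean per clone. The numbers 1 and 2 in the sample titles were taken to pair the arrays, because, across probe sets, arrays with 1 number moved away from their own clone's mean together: the correlation was 0.42 to 0.78 in the 6 pairs of clones. Blocked values therefore stand beside results whose call they change. The code was tested on simulated data.

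Values for each array are given for members called, members with an unadjusted p under 0.05 or a knockdown difference of at least 0.5, and the 5 members with the largest H minus M and B minus G differences. Of the wider list, called genes and the 3 largest differences are named under this rule. The genes named from the list in the comparison of replicate numbers were chosen after their values were seen. The members and lists were chosen with earlier results of these data known. Motifs were searched in RefSeq promoter windows, GRCh38.p14, and are credited to RefSeq.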

Additional observations from a re-analysis of the deposited data

Results flagged for a closer look

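In 4 of 88 groups of 4 arrays (44 members in 2 conditions), 1 array lay far from the other 3, which chance gives in about 1 of 20 groups. GCLC was high on array B1, at 10.19, against 10.06 to 10.07 on the other knockdown arrays. GSR was also high on B1, at 8.97, and TXNRD2, the mitochondrial thioredoxin reductase, was low on B2, at 8.18. Among control arrays, GPX7 was low on H1, at 8.63. None of these genes passed the knockdown test with or without the replicate block.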

How the results depend on the processing

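The count of 0 called members became 3 with the replicate block, 5 with the replicate block and no clone block, 16 without clone H and 2 without clone M. It ranged from 0 to 9 when single arrays were left out. Of all probe sets, 657 were called. That count was 1 on clone means, 1568 with the replicate block and no clone block, 18 on arrays numbered 1 alone, 1 on arrays numbered 2 alone, 13 without clone B, 22 without clone G, 8685 without clone H, 2117 without clone M, and from 69 to 3751 without single arrays. For the wider pathway list, 3 called genes became 0 on clone means, on either number alone and without clone B or clone G. They became 11 with the replicate block and no clone block, 30 without clone H, 14 without clone M and 7 among probe sets at or above the median level, and ranged from 0 to 19 without single arrays. With the replicate block the members called rose to 6 for H against M, 1 for B against H, 1 for G against H, and 12 for B or G against M. Quantile normalization left 1 for B against M. The 17 members lower on number 2 became 4 without clone B and 5 without clone G. The PRDX3 difference turned to -0.072 on its second brightest probe set. Fewer arrays and fewer probe sets enter some of these fits, and beyond that the cause was not tested. The PARK7 difference stayed past the test in all 22 alternatives, from -3.01 to -2.79. Beyond the calls given with it, the replicate block changed no knockdown call of a member or of a gene on the wider list. The number of arrays, 8 in 4 clones, limits the size of difference that could be detected.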
